A study of Mus musculus with 4 samples.

Results

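The imprinted growth-control genes examined here are *H19*, *Igf2*, *Igf2r*, *Dlk1*, *Meg3*, *Grb10*, *Ndn*, *Plagl1*, *Peg3* and *Gnas*, 10 of the 23906 gene symbols that each expression file lists. They were taken by symbol from mouse haematopoietic stem cell (HSC) fractions, and all 10 had a row in every file. HSC-enriched LSK-SLAM cells (negative for mature lineage markers and for CD48, positive for Sca1, cKit and CD150) were sorted from foetal liver (FL) at embryonic day 14 and from adult bone marrow (BM). Each population was divided by a *BRE–GFP* reporter into BMP-activated (GFP+) and non-activated (GFP-) cells, and RNA of each fraction was sequenced as 1 library, which gave 4 libraries in all. All 4 groups, GFP- included, came from mice of a C57BL/6 background that carry the transgene, in which GFP is transcribed from a BMP responsive element of *Id1* bound by Smad1/5, so that GFP reports pathway activity about the time of the sort. The strength of the sort as a model is limited by what its surface markers select, and the number of embryos or mice behind a library is not given in the sources used here.

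Imprinted genes are transcribed mainly from the maternal or from the paternal allele, according to DNA methylation set in the germ line. Many of them act on foetal growth. Paternally expressed genes such as *Igf2*, *Dlk1* and *Plagl1* tend to promote growth or to keep progenitors immature, and maternally expressed genes such as *H19*, *Igf2r* and *Grb10* tend to restrain it. The FL is a main site of *Igf2* and *H19* expression in the mouse embryo, and both are largely silenced after birth, while work in mice has tied the *H19*–*Igf2* locus to the quiescence of adult HSCs. Libraries of total RNA do not separate the parental alleles, so every value here is the sum of both.

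The values are FPKM, fragment counts scaled by transcript length and by the size of the library, and can be compared between genes. Log2 differences were taken on FPKM + 1, which understates the change of genes near 0. With 1 library per condition, a fold between 2 libraries has no replicate check. No file gives read counts, and the error of a single FPKM is unknown. A test was possible only across all genes, with limma in an additive model of tissue and fraction, where the GFP+ and GFP- libraries stand in for replicates of a tissue and 1 residual degree of freedom is left.

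The deposited labels were used throughout and were checked on a few genes. The order of the libraries in the study's own display of lymphoid genes appeared to differ from these labels, which could not be settled here beyond the checks that follow. All 5 foetal regulators examined (*Lin28b*, *Hmga2*, *Igf2bp1*, *Igf2bp2* and *Igf2bp3*) were over 2-fold higher in FL than in BM in both fractions. For the fraction labels, GFP has no row. The study reports *Bmpr* genes in GFP+ but not GFP- cells of both tissues, and these genes were not used as a check here. The only gene used to check the fraction labels was *Id1*, the source of the reporter's element, chosen here after its values were seen. It was 1.93-fold higher in GFP+ than in GFP- cells of the FL and 4.03-fold higher in the BM (limma, adjusted p = 0.735). The BM GFP+ library stood apart. Its *Procr* was listed at 0 against 60.8 to 113 FPKM in the other libraries, and its *Kit* was 22.2 FPKM against 76.6 to 150. The 9 granulocyte markers examined summed to 62300 FPKM there and to 17500 in BM GFP-, against 310 and 587 in the FL libraries. *Procr* and *Kit* mark HSCs. Of the granulocyte genes, *Mpo*, *Elane*, *Prtn3* and *Ctsg* are primary granule genes, transcribed already in myeloid progenitors. They stood at 1560 to 5780 FPKM in BM GFP+ and 1210 to 4750 in BM GFP-. The other listed genes, *S100a8* among them (25300 and 3190 FPKM), mark maturing myeloid cells, which the sort should remove. Each tissue difference is therefore given within the GFP+ and within the GFP- fraction, the second of which does not use the BM GFP+ library. The BM GFP- library was not free of such RNA either. The negative sort markers examined, *Cd48* among them, summed to 1560 FPKM in BM GFP+ and 802 in BM GFP-, against 113 in FL GFP+ and 68.3 in FL GFP-. *Ly6c2* supplied 1100 and 605 FPKM of the BM sums. *Ptprc*, which HSCs transcribe too, supplied 32.7 and 45.1 FPKM of the FL sums and 115 and 48.0 of the BM sums. The sums thus do not measure excluded cells alone. In bulk RNA, fewer cells of a type and less RNA per cell cannot be told apart.

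Sequence upstream of the start is shown for *Grb10*, *Ndn* and *Meg3*, the members other than *Gnas* measured at over 2 FPKM in all 4 libraries, because imprinting acts through methylated CG dinucleotides. Each run is the 250 bases before a RefSeq start in GRCm38.p6, 5′ to 3′ on the gene's strand, with every CG in capitals.
*Grb10* (chr11:12037421-12037670, minus strand, upstream of its second listed start): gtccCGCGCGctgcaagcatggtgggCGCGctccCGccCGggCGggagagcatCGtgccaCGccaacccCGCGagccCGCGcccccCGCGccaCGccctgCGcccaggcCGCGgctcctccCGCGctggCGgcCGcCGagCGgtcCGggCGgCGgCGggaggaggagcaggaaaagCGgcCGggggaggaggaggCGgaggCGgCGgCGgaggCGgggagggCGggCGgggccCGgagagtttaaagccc
*Ndn* (chr7:62348027-62348276, plus strand): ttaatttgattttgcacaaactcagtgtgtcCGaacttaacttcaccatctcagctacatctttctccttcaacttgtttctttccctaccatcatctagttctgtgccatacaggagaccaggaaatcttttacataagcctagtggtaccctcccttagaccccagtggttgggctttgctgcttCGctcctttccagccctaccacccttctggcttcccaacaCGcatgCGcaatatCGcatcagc
*Meg3* (chr12:109540746-109540995, plus strand, upstream of its first listed start): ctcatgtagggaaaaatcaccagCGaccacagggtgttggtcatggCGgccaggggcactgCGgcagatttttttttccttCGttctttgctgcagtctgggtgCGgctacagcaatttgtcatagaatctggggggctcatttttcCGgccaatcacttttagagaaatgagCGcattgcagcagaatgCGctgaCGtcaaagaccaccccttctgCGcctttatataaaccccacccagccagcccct
The *Grb10* window held 40 CG, above 98.7% of the 32851 windows of the same length, with 81.2% G or C. The window of its other listed start held 8. The *Ndn* window held 5 CG, the *Meg3* window shown 10 and that of its other start 0, against a median of 6 over all windows (quartiles 2 and 16). Over the 9 members with an entry, 13 of 17 windows held more CG than that median. *Igf2* and *Gnas* gave 4 windows each, and some *Gnas* windows overlap, so the windows are not independent. The palindrome GGCGCC, which Smad1/5 binds in the *Id1* element, was searched for in the same windows (it reads the same on both strands). It stood in 2 of 17, 1 upstream of *Peg3* and 1 upstream of *Gnas*, against 9.59% of all windows. These are counts of letters and show neither methylation nor binding, which were not measured.

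FL LSK-SLAM cells carried more RNA of most of these genes than BM LSK-SLAM cells. *H19*, *Igf2*, *Dlk1*, *Grb10* and *Ndn* showed the widest gaps within GFP+ cells on the log2(FPKM + 1) scale, *Meg3* and *Igf2r* narrower ones, and *Gnas* was lower in FL than in BM. *Plagl1* and *Peg3* were low in every library, at no more than 3.22 FPKM. In all, 7 of the 10 genes were over 2-fold higher in FL in both fractions, against 7.86% of the 13609 genes that reached 1 FPKM in a library. None was over 2-fold lower in FL in both, against 12.2% of all genes. Of the 10, *H19*, *Igf2*, *Igf2r*, *Dlk1*, *Plagl1* and *Peg3* reached 1 FPKM only in FL libraries. Their entry among the 13609 genes thus already favoured the direction seen. The 10 genes were also chosen with earlier results of these data known. Within GFP+ cells 7 were over 2-fold higher in FL (24.1% of all genes), and within GFP- cells 9 were (19.2% of all genes), the exception being *Gnas*. Both FL libraries lay above both BM libraries for the same 7 genes (19.9% of all genes), and both BM libraries above both FL libraries for *Gnas* alone among the 10 (26.2% of all genes).

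**Figure D1:**
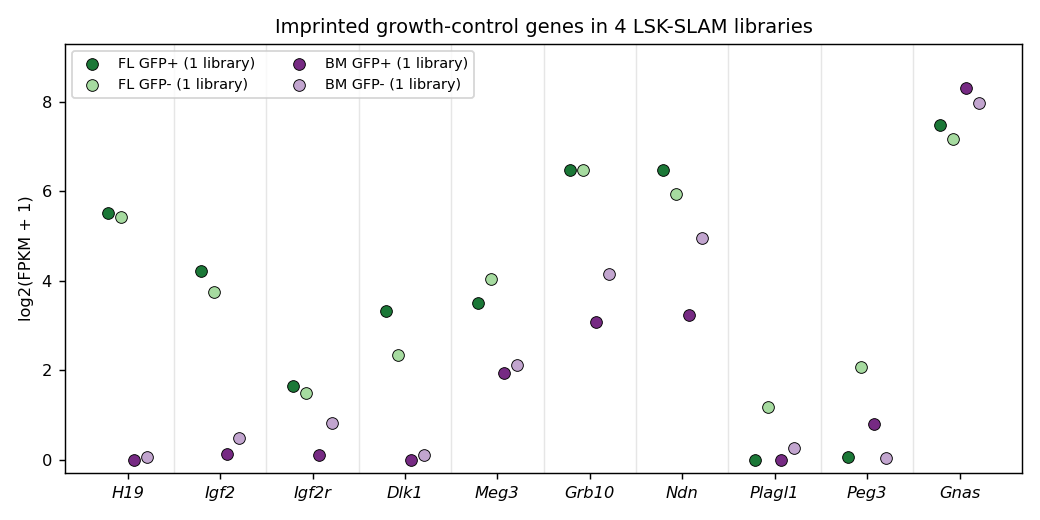
Level of each gene as log2(FPKM + 1) in the 4 libraries, 1 point per library; dark points are GFP+, light points GFP-, green FL and purple BM. *H19* stands at 44.7 and 42.1 FPKM in FL and at or near 0 in BM, *Grb10* and *Ndn* are present in all 4 libraries, and *Gnas* is the highest of the 10 in each, up to 317 FPKM in BM GFP+.

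*H19* and *Igf2* are neighbours on chromosome 7. *H19* (chr7:142575530-142578146) makes a long noncoding RNA that is the host of miR-675, and *Igf2* (chr7:142650768-142666816) encodes insulin-like growth factor 2. *H19* stood at 44.7 FPKM in GFP+ and 42.1 in GFP- cells of FL, and at 0 and 0.0368 in those of BM. The 2 FL fractions differed by 1.06-fold, while *H19* in BM was listed at or close to 0, where the spread between fractions cannot be judged. *H19* entered the fit described next only through the FL libraries, so its entry already required the direction seen. The FL minus BM difference was 5.52 within GFP+ and 5.38 within GFP- cells on the log2(FPKM + 1) scale, and limma gave 5.45 ± 0.89 (SE; adjusted p = 0.0176). *H19* ranked above 88.6% and 89.5% of all gene symbols in the FL libraries and above 30.1% in BM GFP-, and it shared the value 0 with all undetected genes in BM GFP+. The call was lost with a pseudocount of 0.1 (adjusted p = 0.0828), without the filter on low FPKM (0.0723) and in limma without trend (0.0732).

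*Igf2* stood at 17.5 FPKM in GFP+ and 12.5 in GFP- cells of FL, and at 0.0969 and 0.394 in those of BM. Here too both FL libraries were far above both BM libraries, by 4.08 within GFP+ and 3.28 within GFP- cells on the log2(FPKM + 1) scale. limma gave 3.68 ± 0.89 (SE), which did not pass the threshold of 0.05 after adjustment (adjusted p = 0.0775). *Igf2os*, an antisense RNA at *Igf2*, stood at 2.66, 0.0401, 0 and 0.0156 FPKM in FL GFP+, FL GFP- and the same fractions of BM, and reads from any overlap with *Igf2* cannot be told apart. *H19* exceeded *Igf2* 2.55-fold in FL GFP+ and 3.37-fold in FL GFP-, which is the order of these levels per length. In BM the order was the opposite, with *Igf2* at low values and *H19* at 0 or 0.0368 FPKM.

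Both genes are strongly expressed by embryonic hepatocytes, whose markers were therefore set beside them. Of 13 hepatocyte markers, 7 were over 2-fold higher in FL in both fractions, and the 13 summed to 463 FPKM in GFP+ and 74.7 in GFP- cells of FL, and to 82.5 and 59.1 in those of BM. Of these sums, *Trf* alone supplied 91.6 and 40.9 FPKM in FL and 66.5 and 47.8 in BM, which was most of the BM sums. *Alb*, the gene of albumin, stood at 140 FPKM in GFP+ and 9.49 in GFP- cells of FL, and at 0 and 0.0737 in those of BM. *Ahsg* and *Fgb* were at 0 in FL GFP+. The hepatocyte markers did not share 1 difference between the FL fractions. Of the 11 that reached 1 FPKM, 8 were over 2-fold higher in FL GFP+ than in FL GFP- (16.6% of all genes) and 2 over 2-fold lower (28.0%). *Alb* was 14.7-fold and *Ttr* 1.28-fold higher in FL GFP+. *H19* differed by 1.06-fold and *Igf2* by 1.40-fold. The part of hepatocyte RNA in the FL levels of *H19* and *Igf2* was not tested. The 10 stromal markers examined summed to 0.219 FPKM in FL GFP+ and 5.84 in FL GFP-, with *Dcn* and *Pdgfra* at 0 in both. Of 7 endothelial markers, 2 were over 2-fold higher in FL in both fractions, *Tek* (41.5, 43.0, 0 and 5.54 FPKM in FL GFP+, FL GFP- and the same fractions of BM) and *Emcn* (65.8, 36.6, 0.0797 and 16.4), both known in HSCs too. The 7 summed to 154 and 129 FPKM in FL and to 42.7 and 64.8 in BM, and their part in the levels of the imprinted genes was not tested. No marker of erythroid cells, macrophages, granulocytes, B cells, T cells or megakaryocytes on the lists examined was over 2-fold higher in FL in both fractions.

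*Igf2r* (chr17:12682406-12769706) encodes the receptor that takes up IGF2 for breakdown in lysosomes. It stood at 2.12 FPKM in GFP+ and 1.79 in GFP- cells of FL, and at 0.0672 and 0.764 in those of BM. Both FL values were above both BM values, 31.5-fold within GFP+ and 2.34-fold within GFP- cells, but all 4 were low and the BM GFP+ value was close to 0. The limma difference of 1.10 ± 0.69 (SE) did not pass (adjusted p = 0.462). *Airn*, the noncoding RNA that runs antisense across *Igf2r*, stood at 5.43, 2.45, 0.112 and 3.61 FPKM in the same order of libraries. Since the sources used here state no strand-specific preparation, reads from the overlap of the 2 genes cannot be told apart. *Igf2* exceeded *Igf2r* 8.29-fold in FL GFP+, 7.0-fold in FL GFP- and 1.44-fold in BM GFP+ cells, and was 0.516 times *Igf2r* in BM GFP- cells. In BM both genes were under 1 FPKM, so the BM ratios carry no stated precision.

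*Grb10* (chr11:11930499-12037428) encodes an adaptor that binds the insulin and IGF1 receptors and dampens their signal. It stood at 87.8 FPKM in GFP+ and 88.5 in GFP- cells of FL, and at 7.45 and 16.9 in those of BM. The FL fractions were nearly equal and both exceeded either BM library at least 5.19-fold. *Grb10* was 11.8-fold higher in FL than in BM within GFP+ and 5.23-fold within GFP- cells, and limma gave a log2 difference of 2.86 ± 0.51 (SE; adjusted p = 0.0256). It was abundant enough to rank above 94.2% and 95.4% of all symbols in FL, and above 68.7% and 78.5% in BM. The call was lost with a pseudocount of 0.1 (adjusted p = 0.0895) and in limma without trend (0.206).

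Among the 34 genes that limma called higher in FL (0.29% of 11707 tested) were thus *H19* and *Grb10*, and among the 254 called lower (2.17%) there was no member. *Peg3* and *Plagl1* did not reach 1 FPKM in 2 libraries and were not tested. *H19*, *Igf2*, *Igf2r* and *Dlk1* entered the fit only through the FL libraries, so their entry already required the direction seen.

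*Dlk1* and *Meg3* share an imprinted cluster on chromosome 12. *Dlk1* (chr12:109452485-109463336) encodes a membrane protein related to Notch ligands that marks foetal hepatoblasts and many immature cells. It stood at 8.96 FPKM in GFP+ and 4.09 in GFP- cells of FL, and at 0 and 0.0753 in those of BM. Its RNA was thus seen in FL and scarcely in BM, by 3.32 within GFP+ and 2.24 within GFP- cells on the log2(FPKM + 1) scale. limma gave 2.78 ± 0.79 (SE; adjusted p = 0.124), which did not pass. *Dlk1* was 2.19-fold higher in FL GFP+ than in FL GFP-, the same direction as *Alb* and the summed hepatocyte markers, though *Ahsg*, *Fgb* and *Fga* were lower in FL GFP+, and the part of these markers in this difference was not tested.

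*Meg3* (chr12:109540996-109571729) makes a noncoding RNA from the maternal allele of the same cluster. It stood at 10.3 FPKM in GFP+ and 15.5 in GFP- cells of FL, and at 2.83 and 3.31 in those of BM. Unlike *Dlk1* it was present in all 4 libraries, 3.63-fold higher in FL within GFP+ and 4.68-fold within GFP- cells. The limma difference was 1.75 ± 0.88 (SE; adjusted p = 0.36) and did not pass. *Meg3* exceeded *Dlk1* 1.15-fold in FL GFP+, 3.79-fold in FL GFP- and 44.0-fold in BM GFP-. The last ratio rests on *Dlk1* at 0.0753 FPKM, and *Dlk1* was at 0 in BM GFP+. The rows of *Mir770* and *Mir1906-2*, which lie within *Meg3*, repeat the *Meg3* values exactly and add nothing to them.

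The clusters also encode microRNAs, of which 17 of the 19 symbols sought had a row. *Mir136* stood at 693 FPKM and *Mir434* at 249 FPKM in BM GFP+, and both were listed at 0 in the other 3 libraries. Both genes lie downstream of *Meg3*, whose own value was lowest in that same library. *Rtl1*, another imprinted gene, stood at 0, 0.0152, 1.1 and 0.0159 FPKM in FL GFP+, FL GFP- and the same fractions of BM. Reads from any overlap of *Rtl1* with *Mir136* and *Mir434* cannot be told apart. FPKM of genes as short as *Mir136* and *Mir434* can be high from few fragments, since the length enters as a divisor, so their values are given without a fold. No row was used for miR-675. The mature RNAs of these 3 genes, from RefSeq in GRCm38.p6, are shown 5′ to 3′ with the seed (bases 2 to 8), which pairs with targets, in capitals, to show that no pair of them shares a seed.
miR-675-5p: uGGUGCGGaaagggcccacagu
miR-675-3p: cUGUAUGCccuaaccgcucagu
miR-136-5p: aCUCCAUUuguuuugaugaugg
miR-136-3p: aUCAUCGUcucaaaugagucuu
miR-434-5p: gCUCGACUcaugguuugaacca
miR-434-3p: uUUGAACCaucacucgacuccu
The 38 mature sequences listed for the microRNAs of these clusters held 37 distinct seeds.

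*Ndn* (chr7:62348277-62349928) encodes necdin, a paternally expressed protein of the MAGE family known to restrain proliferation, also of HSCs. It stood at 87.8 FPKM in GFP+ and 60.8 in GFP- cells of FL, and at 8.45 and 30.2 in those of BM. Both FL libraries were above both BM libraries, but the width of the gap depended on the fraction, 10.4-fold within GFP+ and 2.01-fold within GFP- cells. limma gave a log2 difference of 2.11 ± 0.60 (SE; adjusted p = 0.125), which did not pass. *Ndn* and *Grb10* had the same value in FL GFP+ cells (87.8 FPKM), and *Ndn* was higher in BM GFP- cells, where *Grb10* was 0.561 times *Ndn*.

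*Plagl1* (chr10:13090832-13131694) encodes a zinc-finger protein known to regulate other imprinted genes, *Igf2* and *H19* among them. It was listed at 0 in GFP+ and 1.27 FPKM in GFP- cells of FL, and at 0 and 0.203 in those of BM. *Peg3* (chr7:6703892-6730462), another paternally expressed zinc-finger gene, stood at 0.034, 3.22, 0.739 and 0.0204 FPKM in the same order. Neither gene separated the tissues, since their FL values lay on both sides of a BM value. For *Plagl1* the 2 GFP+ libraries were both at 0 and for *Peg3* the highest values were in FL GFP- and BM GFP+.

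*Gnas* (chr2:174284320-174346744) encodes the stimulatory G protein alpha subunit that couples hormone receptors to cAMP production, from a complex locus with imprinted alternative transcripts. It stood at 178 FPKM in GFP+ and 144 in GFP- cells of FL, and at 317 and 253 in those of BM. Both BM libraries were above both FL libraries, by 1.79-fold within GFP+ and 1.75-fold within GFP- cells, and no FL value reached either BM value. limma gave -0.82 ± 0.30 (SE; adjusted p = 0.211), which did not pass. *Nespas*, an antisense RNA of the locus, stood at 5.99, 1.68, 0 and 1.27 FPKM in the same order of libraries. FPKM per gene do not show which transcripts of the locus were made.

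**Figure D2:**
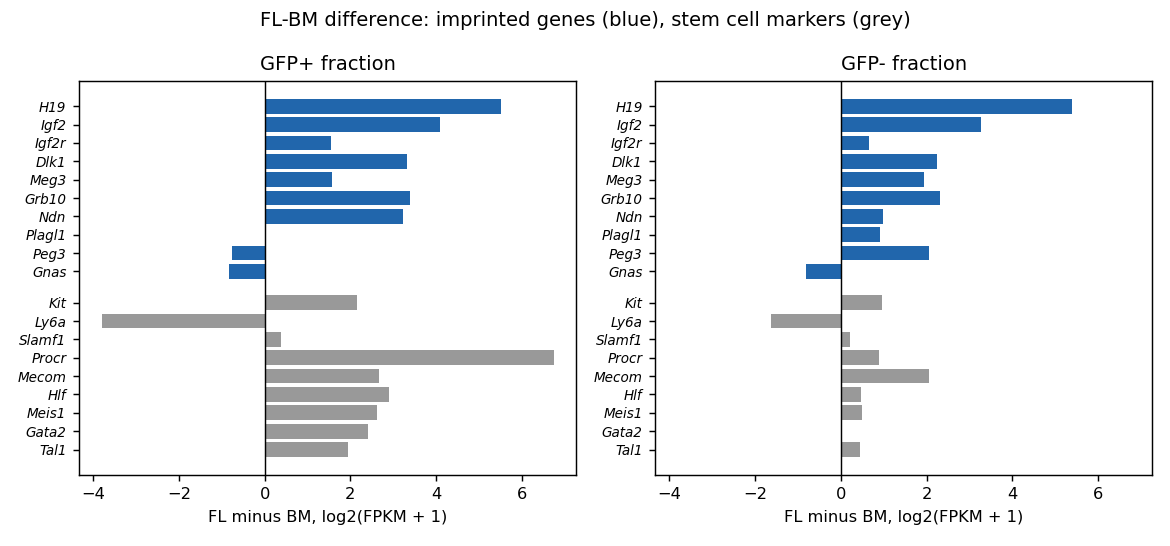
FL minus BM difference in log2(FPKM + 1) for the 10 imprinted genes (blue) and 9 markers of LSK-SLAM cells (grey), within GFP+ (left) and GFP- cells (right); each bar compares 1 library with 1 library. The marker median is 2.42 in GFP+ and 0.48 in GFP- cells, against 5.52 and 5.38 for *H19*.

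Because markers of the sorted cells themselves differed between the libraries, the differences were set against 9 of them, *Procr* and *Kit* among them. Within GFP+ cells these markers had a median difference of 2.42 (from -3.80 for *Ly6a* to 6.74 for *Procr*), and 5 of the 10 imprinted genes lay above that median (*H19*, *Igf2*, *Dlk1*, *Grb10* and *Ndn*). Within GFP- cells the marker median was 0.48 and the highest 2.05, and 9 imprinted genes lay above the median. In that fraction *H19*, *Igf2*, *Grb10* and *Dlk1* also lay above the highest marker. Per 100 FPKM of *Kit*, *Grb10* stood at 85.8 FPKM in GFP+ and 58.9 in GFP- cells of FL, and at 33.6 and 22.1 in those of BM. On the same scale *Ndn* stood at 85.8, 40.5, 38.2 and 39.4, so that FL GFP- no longer lay apart from BM. *Meg3* on that scale was highest in BM GFP+, at 12.8, above both FL libraries (10.3 in FL GFP- and slightly less in FL GFP+), so that its tissue difference was reversed within GFP+ cells, and it was 4.33 in BM GFP-. *H19* and *Igf2* kept their gap on this scale, with *Igf2* at 17.1 and 8.33 in FL and 0.438 and 0.515 in BM.

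Between GFP+ and GFP- cells the imprinted genes showed no common direction. In FL, *Dlk1* was over 2-fold higher in GFP+ cells (16.6% of all genes were), and *Peg3* and *Plagl1* were over 2-fold lower (28.0% of all genes). In BM, *Peg3* was over 2-fold higher in GFP+ cells (19.7% of all genes), and *H19*, *Igf2*, *Igf2r*, *Dlk1*, *Grb10*, *Ndn* and *Plagl1* were over 2-fold lower (22.9% of all genes). Among these 7, *H19*, *Igf2*, *Igf2r*, *Dlk1* and *Plagl1* were under 1 FPKM in both BM libraries. No member was over 2-fold higher in GFP+ cells of both tissues (3.26% of all genes), and *Plagl1* alone was over 2-fold lower in both (8.98% of all genes). limma called 5 genes higher (0.0427% of 11707 tested) and 8 lower (0.0683%) in GFP+ cells, and no member (adjusted p 0.97 to 0.999 over the 8 tested; 0 of the 8 at an unadjusted p under 0.05, the lowest being 0.311 for *Grb10*).

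**Figure D3:**
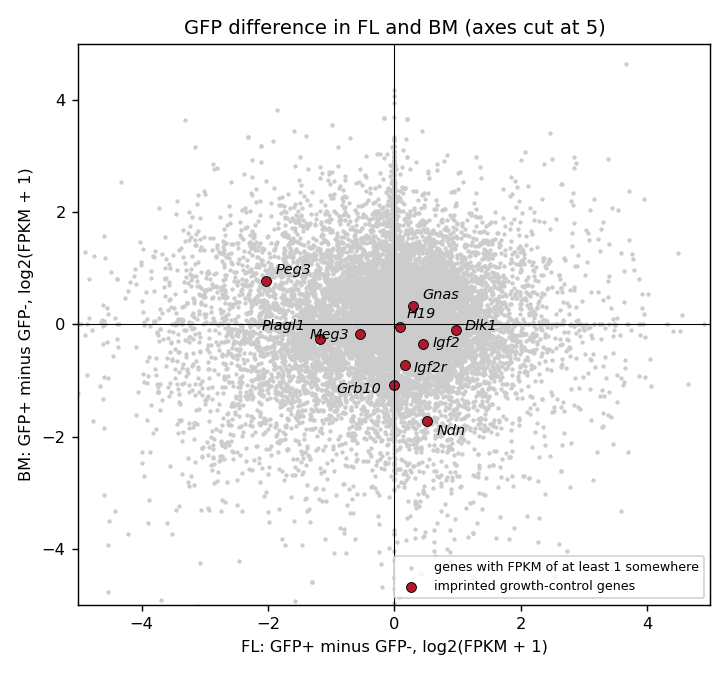
GFP+ minus GFP- difference in log2(FPKM + 1) in FL (horizontal axis) and in BM (vertical axis); red points are the 10 imprinted genes and grey points all genes that reached 1 FPKM in a library, both axes ending at 5. *Ndn* lies at 0.52 in FL and -1.72 in BM, *Peg3* at -2.03 and 0.77, and *Grb10* at -0.01 and -1.09.

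After *Gnas*, *Grb10* and *Ndn* had the highest levels of the 10 genes in each library. *Grb10* was at 87.8 and 88.5 FPKM in the FL fractions and was 2.27-fold lower in GFP+ than in GFP- cells of BM. *Ndn* was 1.44-fold higher in GFP+ cells of FL and 3.57-fold lower in GFP+ cells of BM. The limma differences over both tissues were -0.55 ± 0.51 for *Grb10* and -0.60 ± 0.60 for *Ndn* (SE; adjusted p = 0.97 for each). In BM, 7 of the 9 LSK-SLAM markers were also over 2-fold lower in GFP+ than in GFP- cells, with a median log2 difference of -1.08, while the 7 B cell markers examined summed to 3390 FPKM in GFP+ and 895 in GFP- cells. The part of these markers in the BM values of *Grb10* and *Ndn* was not tested. *Gnas* was 1.23-fold higher in GFP+ cells of FL and 1.25-fold higher in GFP+ cells of BM.

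Other imprinted genes were examined in the same way. Of 60 listed, 59 had a row and 40 reached 1 FPKM in a library. Of these, 7 were over 2-fold higher and 1 (*Begain*, at 0 in FL) over 2-fold lower in FL in both fractions, and limma called none of the 28 tested. *Cdkn1c*, an inhibitor of cyclin-dependent kinases that holds HSCs out of the cell cycle, stood at 16.1 FPKM in GFP+ and 14.2 in GFP- cells of FL, and at 7.14 and 6.17 in those of BM. *Cdkn1c* was thus 2.25-fold and 2.29-fold higher in FL in the GFP+ and GFP- fractions. The limma value for *Cdkn1c* was 1.08 ± 0.78 (SE; adjusted p = 0.536). *Mest* stood at 4.47, 11.9, 1.44 and 0.512 FPKM, *Peg12* at 14.3, 7.91, 3.79 and 3.09, and *Ppp1r9a* at 12.0, 3.52, 0.112 and 0.595 in the same order. *Peg13*, a noncoding RNA, was 0.462 times its GFP- value in GFP+ cells of both tissues (7.19, 15.6, 4.70 and 10.2 FPKM).

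Genes that keep or set imprints were among those higher in FL. *Dnmt3b*, a de novo DNA methyltransferase, stood at 177 FPKM in GFP+ and 176 in GFP- cells of FL, and at 15.5 and 17.6 in those of BM, and limma called it (log2 difference 3.34 ± 0.40 SE, adjusted p = 0.00397). Its partner *Dnmt3a* stood at 35.4, 23.4, 8.61 and 4.99 FPKM (adjusted p = 0.191), and *Zfp445*, a zinc-finger protein that protects imprints, at 35.8, 13.9, 2.83 and 6.54 (adjusted p = 0.259). Of the 9 genes listed, 8 reached 1 FPKM, 3 were over 2-fold higher and 1 (*Zfp57*, at 0, 1.47, 3.92 and 3.34 FPKM) over 2-fold lower in FL in both fractions. *Dnmt1*, which maintains methylation, stood at 167, 106, 64.0 and 57.3 FPKM, and the limma difference of 1.12 ± 0.36 (SE) did not pass (adjusted p = 0.159).

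Genes of the insulin-like growth factor pathway went both ways between the tissues. Of 30 genes listed, 21 reached 1 FPKM, 2 were over 2-fold higher (*Igf1* and *Pik3r1*) and 2 over 2-fold lower (*Igfbp5* and *Igfbp7*) in FL in both fractions, and limma called none of the 16 tested. *Igf1*, the other ligand, stood at 20.2 FPKM in GFP+ and 10.7 in GFP- cells of FL, and at 3.78 and 2.15 in those of BM, close to *Igf2* in FL (*Igf2* over *Igf1* 0.869 and 1.17) and above it in BM. *Igf1r*, the receptor for both ligands, stood at 0.832, 3.48, 2.93 and 2.57 FPKM. *Pik3r1*, a regulatory subunit of PI3-kinase, stood at 37.7, 30.5, 9.10 and 14.2 FPKM, and *Igfbp7*, a binding protein, at 1.11, 1.41, 13.2 and 8.82. Of the cAMP genes downstream of *Gnas*, 17 were listed, 16 reached 1 FPKM, 2 were over 2-fold higher (*Adcy7* and *Pde3b*) and 2 over 2-fold lower (*Prkar2a* and *Prkar2b*) in FL in both fractions, and limma called none of the 14 tested. *Adcy7*, an adenylyl cyclase, stood at 52.9, 26.0, 20.0 and 11.8 FPKM. For *Adcy7* both FL libraries were thus above both BM libraries, where *Gnas* had the BM libraries above.

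**Figure D4:**
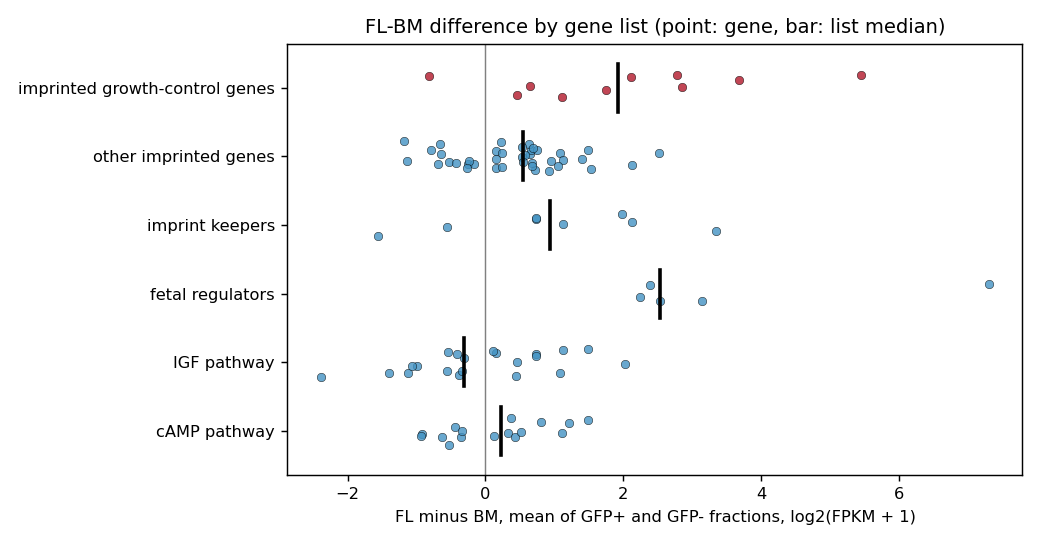
FL minus BM difference in log2(FPKM + 1), the mean of the GFP+ and GFP- fractions, for each gene of 6 lists that reached 1 FPKM in a library; a point is a gene and a bar the list's median. The medians are 1.93 for the 10 imprinted growth-control genes, 0.54 for 40 other imprinted genes, 0.93 for 8 imprint keepers, 2.53 for 5 foetal regulators, -0.32 for 21 IGF pathway genes and 0.22 for 16 cAMP pathway genes, against -0.07 for all 13609 genes.

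The median FL minus BM difference was 1.93 over the 10 growth-control genes (from -0.82 for *Gnas* to 5.45 for *H19*), 0.54 over the other imprinted genes and -0.07 over all 13609 genes. *H19*, *Igf2*, *Igf2r*, *Dlk1*, *Plagl1* and *Peg3* reached 1 FPKM only in FL, so their entry already favoured that direction. The genes closest in profile were sought by the Euclidean distance of centred log2(FPKM + 1) values over the 4 libraries, among 8689 genes that reached 10 FPKM in a library. For *H19* the closest were *Snora21* and *Snora15*, at distances of 1.30 and 1.31, and no gene lay within 1. For *Igf2*, *P2rx2* was among the closest (0.271), with 22 genes within 1. For *Grb10*, *Fads2* was among the closest (0.288), with 83 within 1, and for *Ndn* they were *Fuz* (0.119) and *Heatr5a* (0.159), with 294. *Meg3* was closest to *Mpp7* (0.106) and *Cep68* (0.164), with 367 genes within 1. *Gnas* was closest to *Nop10* (0.0475) and *Btf3* (0.0505), with 2750 genes within 1. Of these 6, *H19* thus had the fewest genes within 1 and *Gnas* the most. The distance is not scaled and grows with the size of a gene's change, so these counts do not describe the shape of a profile alone.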

How the data were processed

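RNA of 4 sorted LSK-SLAM fractions was sequenced from SMARTer libraries. The deposited values are FPKM per gene symbol, which the authors computed with TopHat, Cufflinks 2.2.1 and Cuffnorm. The submitters' processing notes name mm10 and the study's methods name mm9. The files hold no coordinates, and positions printed are from RefSeq in GRCm38.p6. No column was left without a sample. FPKM sums ran from 541453 to 1000850 and genes above 0 from 12372 to 17345 per library. The study states the uniquely mapped reads of each library, but no file gives read counts per gene, and no interval based on depth was computed.

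From the deposited FPKM, log2(FPKM + 1) was computed and fitted with limma 3.58.1 in R 4.3.3 (lmFit on tissue and fraction, eBayes with trend, Benjamini-Hochberg adjustment, threshold 0.05) on the 11707 genes that reached 1 FPKM in 2 or more libraries. The fit was tested on simulated data, where it recovered large changes more often than small ones and made false calls above the nominal share, so a difference that did not pass is not shown to be absent. The error of a gene rests on its 1 residual degree of freedom and on 7.52 prior degrees of freedom, taken from all genes by level. The p-values thus measure mostly the spread of other genes of like level between fractions and tissues, not between animals. Fold counts used the FPKM as deposited, over the 13609 genes that reached 1 FPKM in a library. Tables were made in Python 3.11.15 (pandas 2.3.3 and numpy 2.4.6), and figures with matplotlib 3.10.9.

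Genes named outside the 10 are those of the lists past 2-fold the same way in both fractions or both tissues with at least 5 FPKM in a library, the closest profiles, and genes that overlap or check a label. A few (*Id1*, *Igf1r*, *Dnmt1*, *Zfp57*, *Airn*, *Nespas*, *Igf2os*, *Mir136*, *Mir434*, *Rtl1*, *Begain*, *Igfbp5*, *Prkar2a*, *Ahsg*, *Fgb*, *Fga*, *Ttr*, *Trf*, *Ptprc*, *Dcn*, *Pdgfra*) were chosen after their values were seen. Most cell type markers that meet the rule are given only as sums or counts. Some closest profiles and 1 LSK-SLAM marker are not reported here. The members and lists were chosen with earlier results of these data known. Alternatives were another pseudocount, filters, thresholds, rescaled libraries, limma without trend or covariate and, added after seeing the data, leaving out BM GFP+.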

Additional observations from a re-analysis of the deposited data

Results flagged for a closer look

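The GFP difference of 2 genes had opposite signs in the tissues. For *Peg3*, the GFP+ over GFP- log2 ratio of FPKM + 1 was -2.03 in FL and 0.77 in BM, so BM minus FL was 2.80. All 4 *Peg3* values were at or under 3.22 FPKM. For *Ndn*, the ratio was 0.52 in FL and -1.72 in BM, so BM minus FL was -2.25, at levels of 8.45 to 87.8 FPKM. With 1 library per condition neither difference was tested.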

How the results depend on the processing

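Of 104 values of single members under alternatives, 91 kept their direction and their side of the threshold. Genes called between FL and BM numbered 288 (11.8% of them higher in FL), and 80 with a pseudocount of 0.1, 189 without a filter, 176 without a covariate and 0 in limma without trend (1581 at an unadjusted p under 0.05). The share higher was 24.1% with equal FPKM totals, which moved the median FL minus BM difference of all genes from -0.09 to 0.37, and 24.4% with 1 FPKM required in all 4 libraries. The 2 members called became 0 with a pseudocount of 0.1, 1 without a filter and 0 without trend. The adjusted p of *H19* was then 0.0828, 0.0723 and 0.0732, that of *Grb10* 0.0895 with the pseudocount and 0.206 without trend, and that of *Ndn* 0.031 with 1 FPKM required in all 4. Genes called between GFP fractions numbered 13, and 1 with a pseudocount of 0.1, 5 with 1 FPKM required in all 4, 4 without a covariate and 0 without trend (685 at an unadjusted p under 0.05). The GFP difference changed sign for *H19* (-0.18, -0.11 and -0.09) and *Igf2* (-0.42, -0.08 and -0.05) with a pseudocount of 0.1, equal totals and equal upper quartiles, and for *Gnas* with equal totals (-0.04). Members past the fold threshold in FL over BM numbered 7, all higher in FL (7.86% of all genes), and 4 at 4-fold, where no share over all genes was computed. Among the members, *H19*, *Igf2*, *Igf2r*, *Dlk1*, *Plagl1* and *Peg3* reached 1 FPKM only in FL, so their entry into such counts already favoured that direction. Without BM GFP+, an alternative added after seeing the data, only the GFP- pair is left. In it 9 members were past 2-fold, all higher in FL (19.2% of all genes). The 1 member past 2-fold the same way between GFP fractions became 0 on FPKM + 1. Without BM GFP+ only the FL pair is left, in which 3 members were past 2-fold, 1 higher (16.6% of all genes) and 2 lower (28.0% of all genes). Members whose GFP difference varied between tissues by over 1 on the log2 scale numbered 4, and 7 with a pseudocount of 0.1. The share over all genes was not computed for this count, so it is not a result about the members. The cause of these changes was not tested. No paired analysis was possible because each group holds 1 library, beyond the tissue and fraction terms of the fit itself. The study states the uniquely mapped reads of each library, but read counts per gene are not given, so values below 1 FPKM carry no stated precision.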
